A study of Mus musculus with 8 samples.

Results

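MicroRNAs are cut from long transcripts in steps, and 7 genes that encode the enzymes and cofactors of those steps were examined here: Drosha, Dgcr8, Xpo5, Ran, Dicer1, Tarbp2 and Prkra. They were listed by name, as the core of the route that makes the small RNAs loaded into Argonaute 2 (Ago2), by a rule that uses no measured value, though earlier results of these data were known. All 7 were found among the 55487 genes of the count table, and all 7 were among the 16061 genes with enough reads to be tested. The RNA came from tumors of Lewis lung carcinoma (LLC) cells, a mouse line of lung cancer implanted under the skin of syngeneic C57BL/6J mice, female and young adult per the study's methods, and collected at day 12 with no drug treatment given in the labels. The comparison was between 4 tumors of wild-type cancer cells and 4 tumors of cancer cells with the genotype Ago2 knock-out (ΔAgo2).

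Per the study's methods, the knock-out cells were made with a lentiviral CRISPR guide. The study also describes sorting of single cells to obtain clones and names 1 clone as the one used for engraftment, so traits of that clone and loss of Ago2 cannot be told apart. The host mice carry Ago2, so blood vessels, stroma and immune cells of a ΔAgo2 tumor can still express it. The 8 tumors are labelled as biological replicates, the labels do not name the mice, and p-values here measure the spread between these tumors. In CPM (counts made relative to TMM-corrected library sizes), Ago2 itself stood at 129.9, 195.0, 151.3 and 138.5 CPM across wild-type tumors 1 to 4 and at 118.3, 354.7, 215.0 and 270.1 CPM in ΔAgo2 tumors 1 to 4 (log2 fold change 0.64, adjusted p = 0.205 by edgeR's quasi-likelihood test). The targeted transcript was thus not reduced under the ΔAgo2 label, but an edited gene can still be transcribed, and the study checked the cells at the protein level by Western blot, which was not analysed here. Every direction below depends on the labels.

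In the nucleus, the microprocessor, made of the RNase III enzyme Drosha and its RNA-binding partner Dgcr8, cuts a hairpin out of the primary transcript. Exportin-5, encoded by Xpo5, carries the hairpin to the cytoplasm together with the GTP-bound form of the small GTPase Ran. There Dicer1, a second RNase III enzyme, cuts the hairpin to a short duplex with the help of the double-stranded RNA-binding proteins Trbp (Tarbp2) and Pact (Prkra), and the duplex is handed to an Argonaute. Prkra is also known as an activator of the kinase PKR, and Ran serves nuclear transport in general, so neither gene belongs to microRNA making alone.

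Dgcr8 and Drosha are tied by a known loop in which the microprocessor cuts hairpins in the Dgcr8 messenger itself. The microRNAs annotated in those hairpins are shown for that reason. They lie on the minus strand of chromosome 16 in GRCm38 (mm10), in exon 2 of 14 of transcript Dgcr8-201. Hairpin mir-1306 lies in the coding part of that exon and mir-3618 in its 5′ untranslated part. The mature sequences, from RefSeq on GRCm38.p6 and read 5′ to 3′ with the seed (bases 2 to 8) in capitals, lie at chr16:18284248-18284268, chr16:18284288-18284310, chr16:18284562-18284583 and chr16:18284602-18284623, in the order given.
mmu-miR-1306-3p: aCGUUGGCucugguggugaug
mmu-miR-1306-5p: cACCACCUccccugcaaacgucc
mmu-miR-3618-3p: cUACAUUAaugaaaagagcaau
mmu-miR-3618-5p: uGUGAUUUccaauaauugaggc

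No seed is shared among the 4. The microRNA genes that the annotation places there, Mir1306 and Gm24572, were listed at 0 counts in all 8 libraries. These are libraries of polyadenylated RNA, so reads from the hairpin's host messenger were counted and mature microRNAs were not measured.

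Sequencing depth differed widely. Total counts ran from 7903288 to 52809635 in wild-type tumors and from 31846706 to 268564145 in ΔAgo2 tumors. The lowest count of any of the 7 genes was 119, for Dgcr8 in wild-type tumor 4, where counting error alone was 9.17% of the value. Libraries also differed in how counts depended on the GC content and length of genes. These trends were fitted to each gene's departure from its own mean over the 8 libraries. They are thus relative between libraries, and a value near 0 does not mean that a library had no such dependence. Between genes at the upper and lower quartile of GC content (54.5% and 45.0%), this relative GC trend of log2 CPM ran from -0.19 to 0.86 in wild-type tumors and from -0.62 to 0.02 in ΔAgo2 tumors. Wild-type tumors 2 and 4 were the highest at 0.66 and 0.86, and ΔAgo2 tumor 2 the lowest. Between genes of 6245 and 2277 exonic bases, the length trend was lowest in ΔAgo2 tumor 1 and wild-type tumor 4, at -0.46 and -0.33.

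None of the 7 processing genes differed between genotypes in the quasi-likelihood test of edgeR after Benjamini-Hochberg adjustment. Among all genes tested, 3.49% passed an adjusted p of 0.05. At an unadjusted p under 0.05 the count was again 0 of 7, against 26.7% of all genes tested. In 0 of 7 genes did the 4 CPM values of one genotype lie apart from the 4 of the other, against 16.4% of all genes tested. DESeq2 also called 0 of 7 (13.1% of the genes it tested), and limma voom with sample quality weights called 1 of 7, Dicer1 (27.9% of all genes). Log2 fold changes ran from -0.40 for Tarbp2 to 0.49 for Dicer1, with a median of -0.01 against 0.04 over all genes tested.

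**Figure D1:**
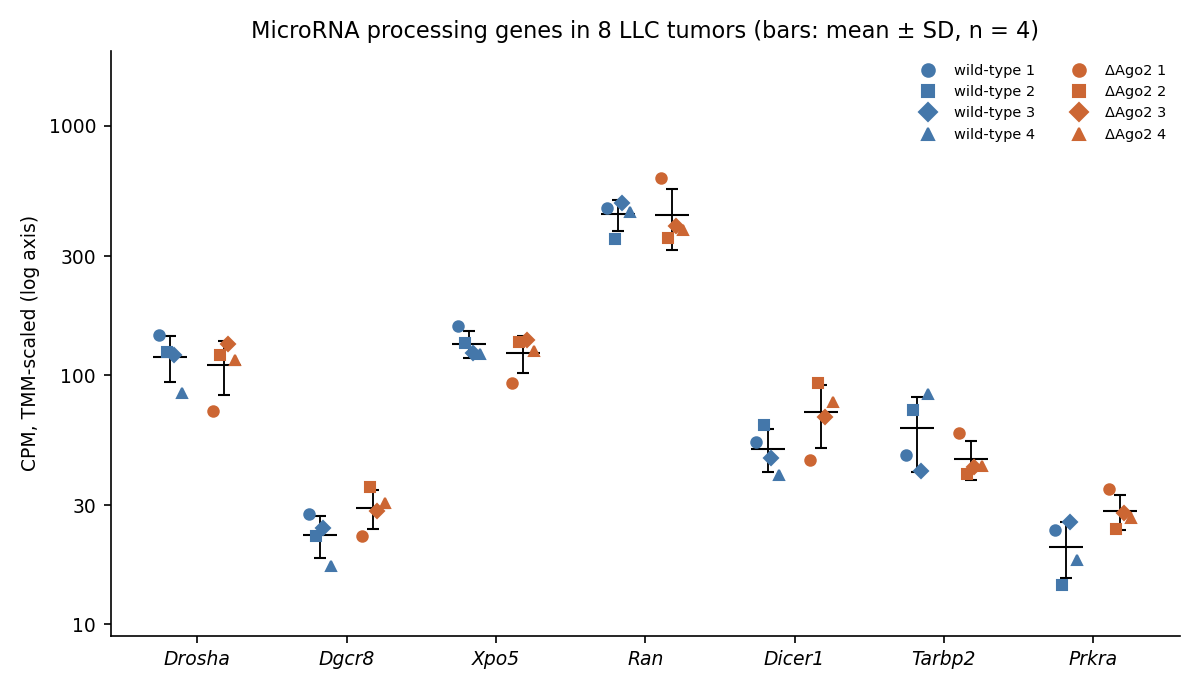
CPM (log axis) of the 7 microRNA processing genes in each of the 8 tumors, with wild-type tumors in blue, ΔAgo2 tumors in orange, one marker shape per replicate number, and bars for mean ± SD (n = 4). The genotypes overlap for each of the 7 genes, and ΔAgo2 tumor 1 (orange circles) is the lowest of its group for Drosha, Dgcr8, Xpo5 and Dicer1 and the highest for Ran, Tarbp2 and Prkra.

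For the microprocessor, Drosha (ENSMUSG00000022191.16, chromosome 15, 12824815 to 12935291, plus strand) stood at 144.5, 123.9, 120.7 and 84.6 CPM across wild-type tumors 1 to 4. In ΔAgo2 tumors 1 to 4 it stood at 71.8, 120.5, 133.1 and 114.5 CPM. The ranges overlapped almost fully, with wild-type tumor 4 and ΔAgo2 tumor 1 low. The means were 118.4 ± 24.9 CPM and 110.0 ± 26.6 CPM (SD, n = 4), which gave a log2 fold change of -0.11 (SE 0.24) and an adjusted p of 0.796. The 95% interval ran from 0.643-fold to 1.34-fold, so neither a doubling nor a halving of Drosha lay inside it.

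Dgcr8 (ENSMUSG00000022718.12, chromosome 16, 18253948 to 18289246, minus strand), which grips the hairpin for Drosha, was measured at 27.6, 22.6, 24.3 and 17.1 CPM across wild-type tumors 1 to 4. The values in ΔAgo2 tumors were 22.7, 35.5, 28.5 and 30.5 CPM. Of the ΔAgo2 tumors, 2 to 4 lay above the whole wild-type range and tumor 1 lay inside it. The log2 fold change was 0.35 (SE 0.22) with an adjusted p of 0.322, and the interval reached from 0.909-fold to 1.79-fold. With the length trend removed it was 0.22 (adjusted p = 0.384). The annotated exons of Dgcr8 share 825 bases with Trmt2a, a tRNA methyltransferase gene on the opposite strand. They also share 327 bases with Gm49776, a protein-coding gene on the same strand. Of the 100-base words of Dgcr8 transcripts, 11.9% also occur in other genes. Whether counting used the strand is not given in the sources used here. Trmt2a stood at 39.9 to 62.8 CPM in wild-type and 37.9 to 42.4 CPM in ΔAgo2 tumors (log2 fold change -0.35, adjusted p = 0.264), opposite in sign to Dgcr8.

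In the export pair, neither gene passed the test. Xpo5 (ENSMUSG00000067150.6, chromosome 17, 46202782 to 46243598, plus strand), the carrier of precursor hairpins, stood at 156.7, 134.8, 122.4 and 121.0 CPM across wild-type tumors 1 to 4 and at 93.0, 135.9, 138.0 and 124.8 CPM in ΔAgo2 tumors 1 to 4. Only ΔAgo2 tumor 1 fell below the wild-type range. The log2 fold change was -0.12 (SE 0.19), with an adjusted p of 0.708 and an interval from 0.684-fold to 1.24-fold, the narrowest of the 7 on the log2 scale.

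Ran (ENSMUSG00000029430.13, chromosome 5, 129020069 to 129024323, plus strand) stood at 469.8, 352.5, 489.5 and 451.4 CPM across wild-type tumors 1 to 4. In ΔAgo2 tumors it stood at 617.5, 355.6, 394.6 and 383.4 CPM. ΔAgo2 tumor 1 exceeded every other tumor, and the other 3 of its group lay inside the wild-type range. The group means were 440.8 ± 60.9 CPM and 437.8 ± 120.9 CPM (SD, n = 4), which gave a log2 fold change of -0.01 (SE 0.23) and an adjusted p of 0.981 by edgeR. The interval ran from 0.699-fold to 1.41-fold. Of the 100-base words of Ran, 9.95% occur in the copy Gm13461, which held 14 to 250 counts per library against 3149 to 109514 for Ran.

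Among the dicing genes, Dicer1 (ENSMUSG00000041415.10, chromosome 12, 104687742 to 104751952, minus strand) stood at 53.7, 62.8, 46.7 and 39.6 CPM across wild-type tumors 1 to 4. The values in ΔAgo2 tumors 1 to 4 were 45.5, 92.9, 67.6 and 78.2 CPM. ΔAgo2 tumors 2 to 4 lay above all wild-type tumors, and ΔAgo2 tumor 1 lay below 3 of them. The means were 50.7 ± 9.93 CPM and 71.1 ± 19.9 CPM (SD, n = 4), and the log2 fold change of 0.49 (SE 0.25) had an adjusted p of 0.228 by edgeR. The 95% interval ran from 0.962-fold to 2.04-fold, so a doubling of Dicer1 lay inside it. Limma voom with quality weights gave 0.57 with an adjusted p of 0.0262. It weights ΔAgo2 tumor 4, the deepest library, at 5.27 and ΔAgo2 tumor 1 at 0.233. Without wild-type tumor 4 and ΔAgo2 tumor 1 the edgeR value was 0.53 with an adjusted p of 0.104, and after removal of each library's length trend it was 0.20 with an adjusted p of 0.402.

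Tarbp2 (ENSMUSG00000023051.11, chromosome 15, 102518192 to 102523676, plus strand), the Dicer1 cofactor Trbp, stood at 47.6, 72.1, 41.1 and 83.9 CPM across wild-type tumors 1 to 4. In ΔAgo2 tumors it stood at 58.6, 40.1, 42.9 and 43.1 CPM. Wild-type tumors 2 and 4, the libraries with the highest GC trend, were high, and the other wild-type tumors lay within the ΔAgo2 range. The log2 fold change was -0.40 (SE 0.26) with an adjusted p of 0.325 and an interval from 0.512-fold to 1.12-fold. After removal of the GC trend it was -0.08 with an adjusted p of 0.819. At 54.1% GC, Tarbp2 is the most GC-rich of the 7 genes. The copy Gm18584 shares 9.46% of its 100-base words and held 4 to 63 counts per library, against 585 to 12303 for Tarbp2.

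Prkra (ENSMUSG00000002731.6, chromosome 2, 76629898 to 76648015, minus strand), the other cofactor, stood at 23.8, 14.4, 25.7 and 18.1 CPM across wild-type tumors 1 to 4. In ΔAgo2 tumors 1 to 4 it stood at 35.0, 24.2, 28.0 and 26.7 CPM. Of the ΔAgo2 tumors, 3 lay above all wild-type tumors and ΔAgo2 tumor 2 lay between wild-type tumors 1 and 3. The log2 fold change was 0.47 (SE 0.24) with an adjusted p of 0.225 and an interval from 0.965-fold to 1.99-fold. Neither cofactor therefore passed the test, and the 2 had opposite signs.

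**Figure D2:**
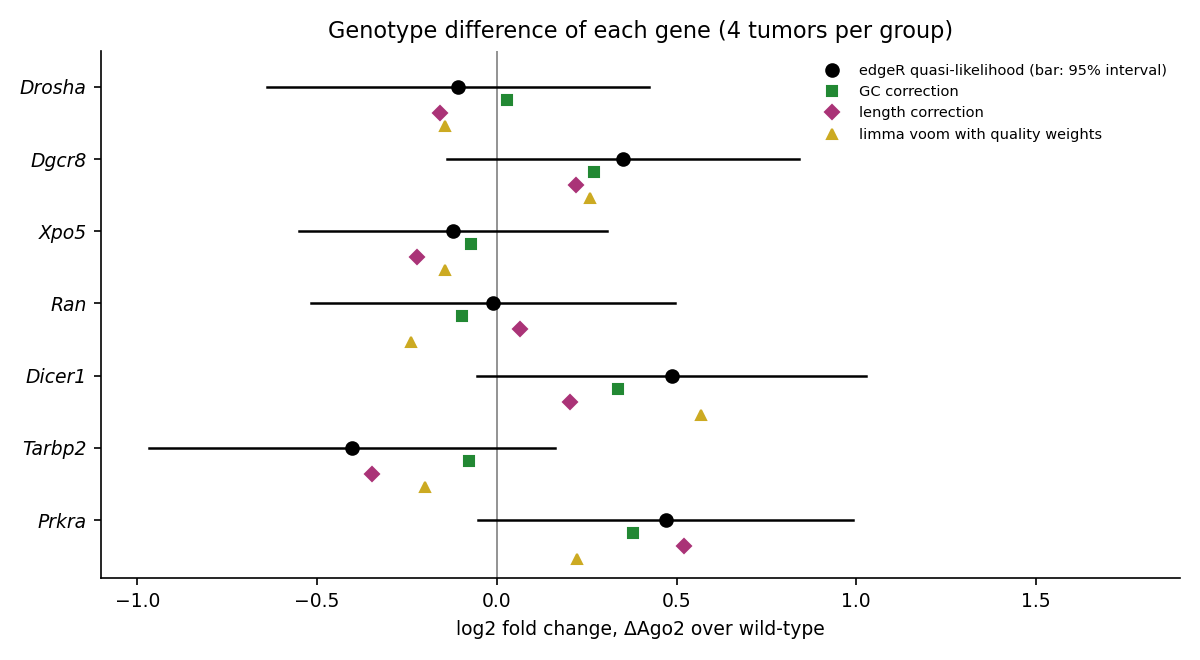
Log2 fold change of ΔAgo2 over wild-type tumors for each gene by edgeR's quasi-likelihood test (black, bar for the 95% interval), after correction of library trends on GC content (green) or length (purple), and by limma voom with quality weights (yellow). Each of the 7 black bars crosses 0, and Tarbp2 moves from -0.40 to -0.08 under the GC correction.

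The departures of the genes from their own means were not shared by all 7. In ΔAgo2 tumor 1, the shortest genes were above their mean on the log2 CPM scale, Prkra (2028 exonic bases) by 0.56 and Ran (2646 bases) by 0.51. In the same tumor, Drosha, Xpo5 and Dicer1 (5935, 6859 and 16750 bases) departed by -0.64, -0.45 and -0.36. Wild-type tumor 4, the library with the next lowest length trend, likewise had Dicer1 and Dgcr8 (7696 bases) at -0.57 and -0.58. Not all values followed length, since Xpo5 was at -0.07 and the short Prkra at -0.39 in wild-type tumor 4, and Dgcr8 was at only -0.17 in ΔAgo2 tumor 1. In ΔAgo2 tumor 2, which had the highest length trend at 0.42, Dicer1 and Dgcr8 were at 0.66 and 0.47, but Drosha and Xpo5 at 0.11 and 0.10. Dicer1 lies at percentile 97.7 of exonic length among genes tested and Prkra at percentile 21.2. The part of these library trends in the differences between genotypes was not tested beyond the corrected values given here.

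**Figure D3:**
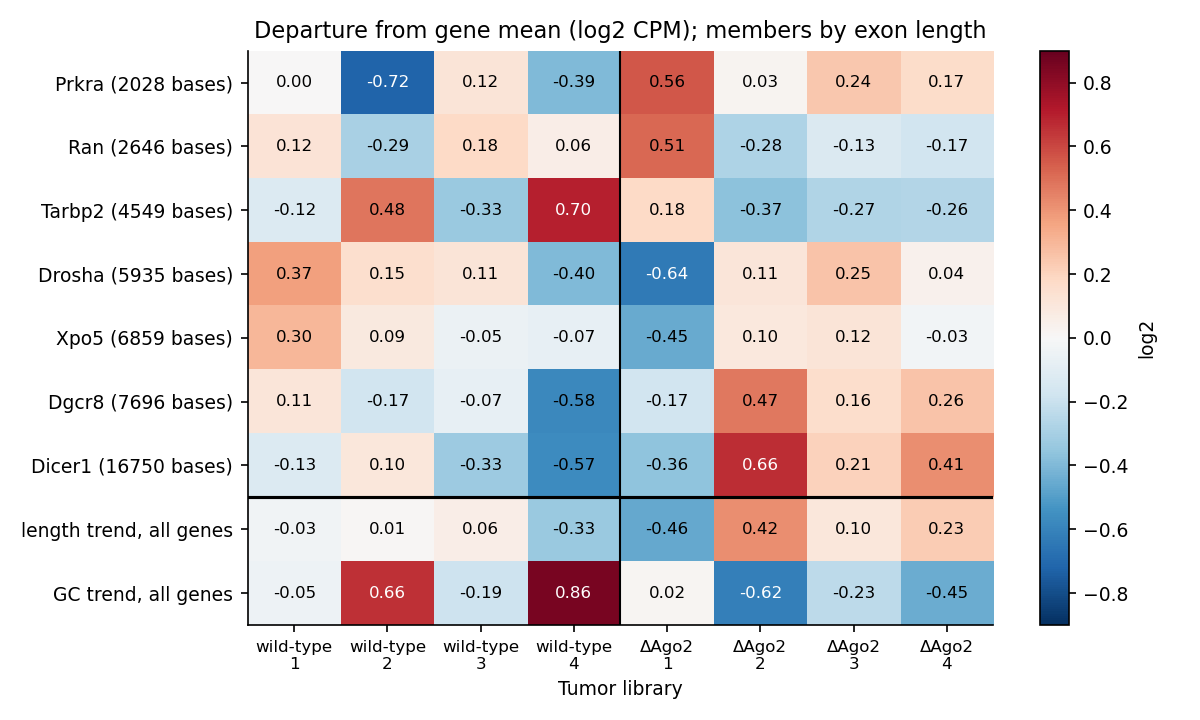
Departure of each gene's log2 CPM from its mean over the 8 tumors, with genes ordered by exonic length from top to bottom, over each library's length and GC trend across all genes (log2 difference between upper and lower quartile genes). The trends are also relative to gene means over the 8 tumors. In ΔAgo2 tumor 1, Prkra is at 0.56, Ran at 0.51, Drosha at -0.64 and Dicer1 at -0.36 above a length trend of -0.46.

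To compare levels between genes, the deposited TPM, which are counts per length scaled to the same total in each library, were used. For these genes the length in use follows the joined exons of all annotated transcripts, 14 for Tarbp2 (4549 bases) and 6 for Dicer1 (16750 bases). Levels and their order between genes depend on that length, and which transcripts the tumors used was not tested. Ran was the most abundant of the 7 at 466.2 ± 67.7 TPM (SD over 8 tumors), percentile 98.4 among tested genes, and exceeded Drosha by 6.38-fold to 19.3-fold in all 8. Drosha and Xpo5 followed at 56.7 ± 18.7 TPM and 54.5 ± 14.9 TPM, and their order held in 6 of 8 tumors. Over all 8 tumors, Prkra (34.8 ± 10.5 TPM) and Tarbp2 (32.6 ± 6.04 TPM) did not differ beyond their spread, with Prkra the higher in 6 of 8. Those were 2 wild-type tumors and all 4 ΔAgo2 tumors, where Prkra was at 42.5 ± 3.12 TPM and Tarbp2 at 30.6 ± 1.97 TPM. Xpo5 exceeded Prkra in 7 of 8 tumors, all but ΔAgo2 tumor 1. The lowest levels were those of Dicer1 at 10.9 ± 5.21 TPM and Dgcr8 at 10.1 ± 3.95 TPM, near the middle of all tested genes (percentiles 50.5 and 49.1), with Dicer1 the higher in 5 of 8. Tarbp2 exceeded Dicer1, the enzyme it serves, in all 8 tumors by 1.59-fold to 7.80-fold.

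**Figure D4:**
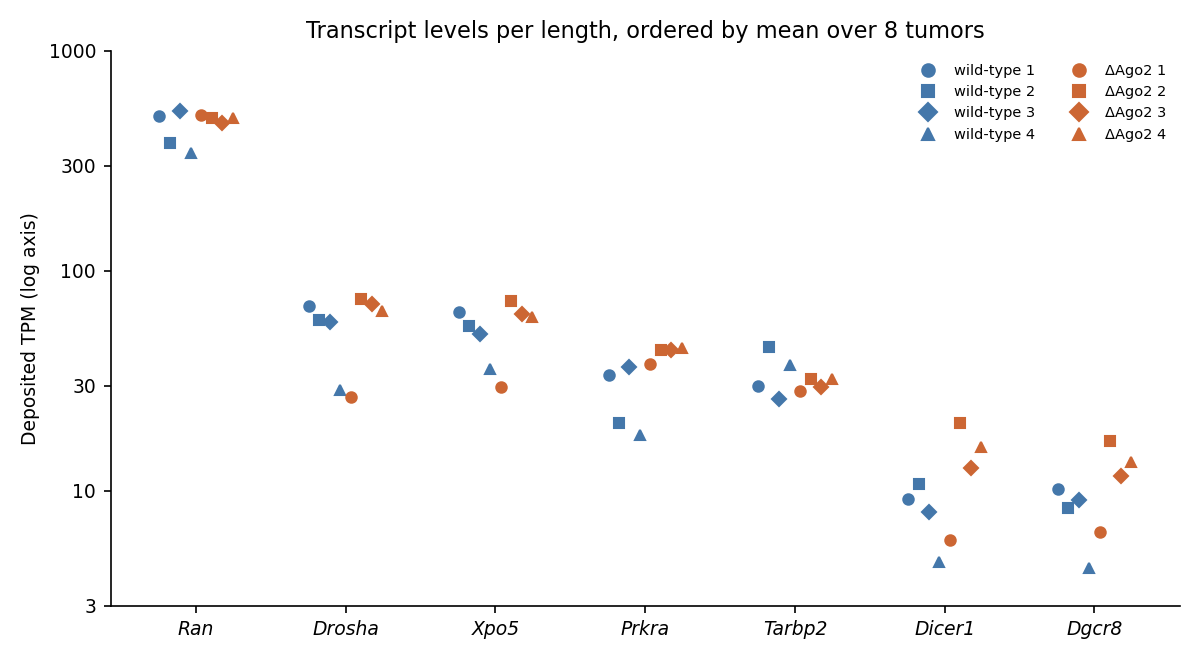
Deposited TPM (log axis) of the 7 genes in each tumor, ordered by the mean over 8 tumors, with wild-type tumors in blue and ΔAgo2 tumors in orange. Ran stands above the other genes in all 8 tumors, and the neighbors Drosha and Xpo5, Prkra and Tarbp2, and Dicer1 and Dgcr8 overlap.

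Ratios between partners within a library do not depend on the scaling between libraries. Dgcr8 amounted to 14.7%, 14.1%, 15.5% and 15.6% of Drosha in TPM in wild-type tumors 1 to 4. In ΔAgo2 tumors 1 to 4 it amounted to 24.3%, 22.7%, 16.5% and 20.6%. All ΔAgo2 tumors lay above all wild-type tumors, though ΔAgo2 tumor 3 by little. On the log2 scale the difference was 0.48. It fell to 0.26 once the GC trend of each library was removed, and the groups then overlapped, from -2.79 to -2.38 in wild-type and from -2.67 to -1.99 in ΔAgo2 tumors. The genotypes lay apart in 1 of 5 partner ratios, where 16.4% of single genes did so in CPM, and no test was made of the ratios.

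In the dicing step, the log2 ratio of Tarbp2 to Dicer1 was 1.71, 2.08, 1.70 and 2.96 in wild-type tumors and 2.24, 0.67, 1.22 and 1.02 in ΔAgo2 tumors. ΔAgo2 tumors 2 to 4 lay below all wild-type tumors, tumor 1 lay among them, and the difference of -0.82 was -0.39 after GC correction. The log2 ratio of Tarbp2 to Prkra lay between -0.55 and -0.42 in all 4 ΔAgo2 tumors, while wild-type tumors were spread from -0.49 to 1.16, with wild-type tumors 2 and 4 high. That of Prkra to Dicer1 differed by 0.04 and that of Xpo5 to Ran by -0.10, both less than the spread within either genotype.

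Since the knock-out cells are described as a clone, genes within 1 Mb of each of the 7 genes were described, as a view of the region. The 8 tested neighbors of Drosha all had positive log2 fold changes (median 0.51), where 8427 of 16061 genes tested were positive, while Drosha was at -0.11. The 44 neighbors of Xpo5 had a median of -0.33, with 9 positive, and the 12 neighbors of Prkra a median of 0.66, with 10 positive. Calls were few, with 1 of 44 lower around Xpo5, 1 of 42 lower around Dgcr8, 2 of 52 lower around Tarbp2 and 0 around the other 4 genes, against 2.12% called lower among all genes tested. Around Dgcr8, Ran, Dicer1 and Tarbp2 the medians lay between -0.10 and 0.06.

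For each of the 7, the genes with the most similar values were searched for among 9247 tested genes of at least 10 CPM, by the mean absolute difference of centered log2 CPM over the 8 libraries. Nearest to Dgcr8 was Senp1, a SUMO protease (0.03), and nearest to Dicer1 was Eif2ak3, the stress kinase PERK (0.04). Ran was nearest to Rbbp4, a histone-binding chromatin protein (0.04), and Prkra to Mrpl19, a mitochondrial ribosomal protein (0.05). Tarbp2 was nearest to Npepl1 (0.02), Xpo5 to Chd8, a chromatin remodeler (0.05), and Drosha to Epb41, a membrane skeleton protein (0.08). The next in order were Adnp2, Kif21b, Timm17a, Atp1b3, Pex14, Csf2rb and Ppp2r1b for the same 7 genes, and the median difference over all genes searched was between 0.37 and 0.45.

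A wider list of 43 genes that act beside the core machinery was then read in the same fit. Lin28a and Lin28b, which block let-7 maturation, had too few reads (0 to 7 and 0 to 39 counts), and 41 were tested. None passed the adjusted threshold by edgeR's quasi-likelihood test, and 10 had an unadjusted p under 0.05, 8 higher and 2 lower in ΔAgo2 tumors. That is 10 of 41 against 26.7% of all genes tested. DESeq2 called 6 of the 42 it tested and limma voom 9 of 41, against 13.1% and 27.9% of all genes. The median log2 fold change was 0.24 for 16 helpers of primary transcript processing, 0.13 for 12 genes of the Ran cycle and export, and 0.04 for 13 genes of precursor tailing, editing and decay. In 4 genes, Tut4, Adarb1, Srsf3 and Erh, the genotypes did not overlap in CPM, against 16.4% of all genes tested.

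The smallest p-value belonged to Tut4, a terminal uridylyltransferase that tails precursor microRNAs. It was at 20.4, 17.3, 19.2 and 13.5 CPM in wild-type tumors and at 21.9, 50.1, 31.3 and 44.0 CPM in ΔAgo2 tumors. The groups lay apart by a small gap, set by ΔAgo2 tumor 1 (log2 fold change 1.06, SE 0.28, adjusted p = 0.0625). DESeq2 and voom called it (adjusted p = 0.0091 and 0.0064), while GC correction in edgeR moved it to 0.53 (adjusted p = 0.161).

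Adarb1, an enzyme that edits adenosine to inosine in double-stranded RNA, was at 60.6, 72.1, 47.6 and 52.3 CPM in wild-type and at 21.3, 38.5, 33.2 and 34.5 CPM in ΔAgo2 tumors. Each ΔAgo2 tumor lay below each wild-type tumor (log2 fold change -0.87, SE 0.23, adjusted p = 0.0643). Of 25 alternative analyses, 7 called Adarb1 and 6 called Tut4, while 0 to 4 called each of the genes named next. Srsf3, a splicing factor that recognizes primary microRNA transcripts, stood at 151.7, 85.1, 164.6 and 117.8 CPM in wild-type and at 284.2, 237.7, 193.1 and 220.8 CPM in ΔAgo2 tumors, again apart (0.85, SE 0.24, adjusted p = 0.0722). The rest of the 8 genes with the smallest p were Tent2, a poly(A) polymerase (1.04, adjusted p = 0.0904), Ranbp2, a nuclear pore protein that binds Ran (1.32, 0.103), Tardbp (0.59, 0.135), the PKR gene Eif2ak2, whose protein Prkra can activate (0.91, 0.147), and Ranbp3 (-0.54, 0.163). With the GC trend of the libraries removed, the log2 fold changes were smaller in size, at 0.31 for Srsf3, 0.48 for Tent2, 0.74 for Ranbp2, 0.07 for Tardbp, 0.52 for Eif2ak2, -0.35 for Ranbp3 and -0.63 for Adarb1.

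**Figure D5:**
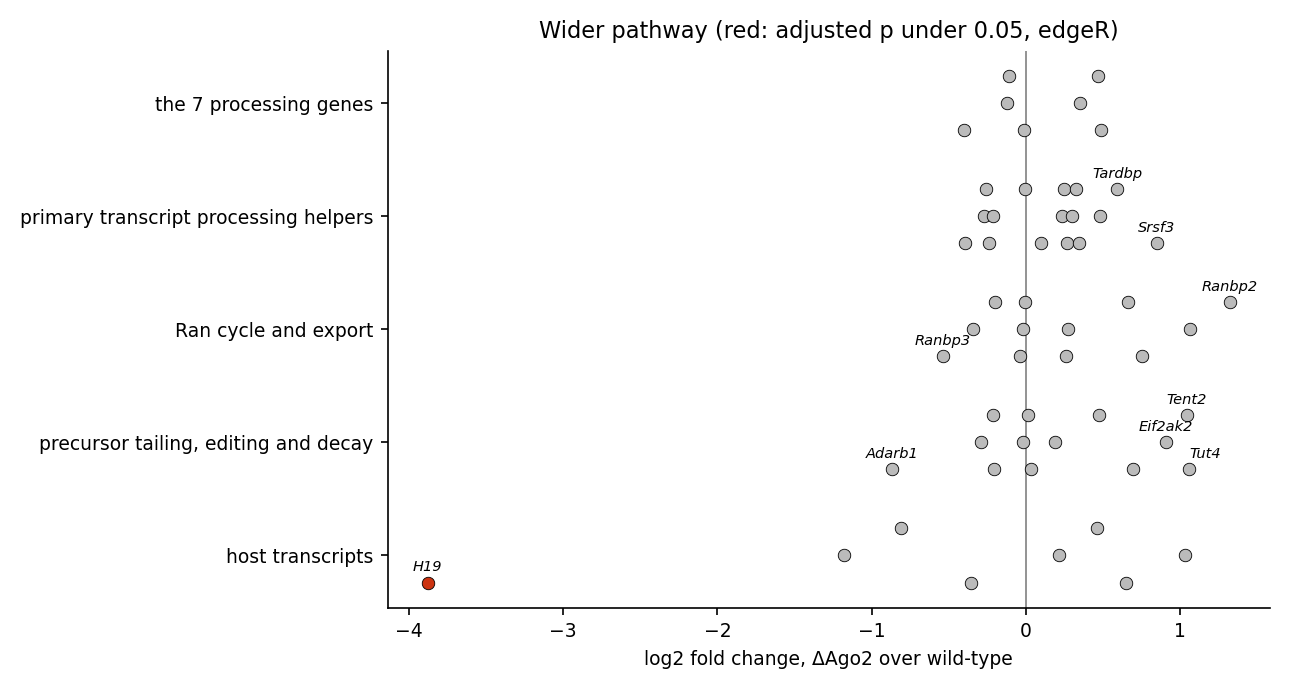
Log2 fold change of ΔAgo2 over wild-type tumors for the 7 processing genes, 41 tested genes of the wider list by role, and 8 tested microRNA host transcripts, with named genes labelled and genes past an adjusted p of 0.05 in red. H19 at -3.88 is the one red point. Vertical offsets within a row only separate the points.

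Of 15 listed host transcripts, long RNAs from which microRNAs are cut, 8 were tested and 1 was called, lower in ΔAgo2 tumors, where 2.12% of all genes tested were called lower. It was H19, an imprinted noncoding RNA on chromosome 7 (142575529 to 142578143, minus strand of GRCm38), which is known as a marker of fetal tissue and as the source of miR-675. H19 stood at 105.4, 289.6, 213.7 and 525.6 CPM across wild-type tumors 1 to 4 and at 20.7, 13.7, 20.3 and 22.5 CPM in ΔAgo2 tumors 1 to 4. The lowest wild-type tumor lay well above the highest ΔAgo2 tumor. The log2 fold change was -3.88 (SE 0.45) with an adjusted p of 0.00215, and it was called in all 25 alternative analyses.

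The microRNA hairpin of H19 is placed by the annotation in exon 1 of 5 of transcript H19-202. Its mature forms, shown because this is the host transcript that changed, lie on the minus strand at chr7:142577078-142577099 and chr7:142577112-142577133 (RefSeq on GRCm38.p6, 5′ to 3′, seed in capitals).
mmu-miR-675-3p: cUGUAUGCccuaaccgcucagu
mmu-miR-675-5p: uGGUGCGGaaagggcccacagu

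Levels of the mature forms were not measured in these libraries. The other tested hosts ran from -1.18 for Meg3 (adjusted p = 0.116), another imprinted noncoding RNA, to 1.03 for Mir17hg (adjusted p = 0.184), the host of the miR-17 to miR-92 cluster.

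For some other tissues and for proliferation, summed marker levels also lay apart between genotypes. Summed over 10 fibroblast markers the level was 4940 to 7275 CPM in wild-type and 2323 to 4677 CPM in ΔAgo2 tumors, and over 17 proliferation genes 2135 to 2485 CPM and 2637 to 2902 CPM. Neither sum overlapped between genotypes. Of the 17 proliferation genes, 12 had positive log2 fold changes and 0 passed the adjusted threshold. Mcm5 (-0.30), Mcm2 (-0.20), Mcm7 (-0.15), Mcm3 (-0.14) and Aurkb (-0.08) went the other way. The sum of 10 skeletal muscle genes also lay apart, at 282 to 3949 CPM, highest in wild-type tumor 3, against 53.5 to 233 CPM. All 10 had negative log2 fold changes, with 0 past the adjusted threshold. The sum of 10 leukocyte markers overlapped at 965 to 1350 CPM and 935 to 1520 CPM. The fibroblast sum was mostly the collagen Col3a1, and without it the genotypes overlapped slightly, at 1079 to 2622 CPM and 916 to 1097 CPM. Dcn (0.16), Pdgfra (0.68) and Postn (0.70) had positive log2 fold changes. Of the leukocyte markers, Ptprc, which encodes CD45, lay apart at 13.9 to 33.1 CPM and 35.5 to 83.6 CPM (log2 fold change 1.12, adjusted p = 0.0785 by edgeR). Itgb2 did as well, making 2 of 10 leukocyte genes, against 16.4% of all genes tested. Of the 10, 7 had positive log2 fold changes and 0 passed the adjusted threshold. Coro1a (-0.87), Rac2 (-0.14) and Laptm5 (-0.05) went the other way. All 10 skin keratinocyte markers had positive log2 fold changes (median 1.5), and 6 of 10 lay apart, against the same 16.4% of all genes tested. Their sums overlapped at 14.7 to 602 CPM and 495 to 940 CPM. Without Krt14, the most abundant, the sums lay apart at 12.4 to 271 CPM and 292 to 513 CPM. The single markers called were Krt10 (1 of 10 keratinocyte genes, higher), Fap (1 of 10 fibroblast genes, lower) and Vwf (1 of 10 endothelial genes, lower), against 3.49% of all genes tested in either direction. The sum of the 10 endothelial markers overlapped, at 145 to 230 CPM in wild-type and 139 to 185 CPM in ΔAgo2 tumors. Of these, 3 had positive log2 fold changes, Emcn (0.52), Cldn5 (0.34) and Kdr (0.32). Of 5 lung epithelial genes, Nkx2-1 was at 0 and Sftpc, Sftpb and Scgb1a1 at or near 0 in all libraries, and Napsa stood at 9.41 to 17.4 CPM, while 6 general epithelial markers summed to 501 to 1261 CPM. In bulk tumors, fewer cells of a type and less RNA per cell cannot be told apart, and the part of these markers in the values of the 7 genes or of H19 was not tested.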

How the data were processed

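RNA-seq was performed on 8 LLC tumors (4 wild-type, 4 ΔAgo2), grouped by sample titles, with stranded poly(A) libraries sequenced paired-end at 100 bases. The authors deposited raw counts per gene, whole numbers with no normalization. The study's methods, written for cultured cells, state alignment to ribosomal RNA and then to mm10 and counting with featureCounts, and the submitters' processing notes name STAR. Annotation release, strand setting and treatment of multi-mapping reads are not given in the sources used here. The authors also deposited TPM values, which are counts per length scaled to the same total in each library. Totals ran from 7903288 to 268564145 counts, so low genes are less precise in shallow libraries. Counting errors cover sampling of reads only, since reads carry no molecular identifiers.

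Identifiers were matched to GENCODE M21 (GRCm38), 99.29% with their version. GC content was taken from the longest transcript of each gene. In R 4.3.3 with edgeR 4.0.16, counts were filtered (filterByExpr), scaled by TMM and tested by the quasi-likelihood test over all genes with Benjamini-Hochberg adjustment at 0.05. CPM used TMM-scaled totals. The 7 genes, the gene lists, the rule for named genes (smallest p of the wider list up to 8, host transcripts past the threshold, and the 2 most similar genes by log2 CPM) and the tests were chosen with earlier results of these data known. Alternatives were other scalings, DESeq2 1.42.0, limma 3.58.1 (voom with quality weights, and on log2(TPM + 1) or log2(TPM + 0.1)), other filters, a replicate block, GC and length corrections as offsets fitted on genes with at least 50 mean counts, thinning, leaving out each library, and, added after seeing the data, 6 libraries, GC with length correction, and marker sums without the most abundant gene of a list. The procedure was tested on simulated data.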

Additional observations from a re-analysis of the deposited data

Results flagged for a closer look

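Of 44 groups of 4 values examined, 2 held a value far from the other 3 of its group, where chance gives about 1 in 20 groups, here 2.2. Both belonged to ΔAgo2 tumor 1. Ran stood there at 617.5 CPM, with the other ΔAgo2 tumors at 355.6 to 394.6 CPM. Tarbp2 stood there at 58.6 CPM, with the others at 40.1 to 43.1 CPM. This library had the lowest length trend (-0.46) and the lowest quality weight (0.233) of the 8. It also had the lowest fibroblast sum (2323 CPM) and the highest sum of 9 adipocyte markers, at 395 CPM. The adipocyte sum was 19.6 to 47.0 CPM in the other ΔAgo2 tumors and 22.8 to 227 CPM in wild-type tumors. The part of these traits in the values of Ran and Tarbp2 was not tested.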

How the results depend on the processing

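Dgcr8, Dicer1, Tarbp2 and Prkra kept their sign in all 25 alternatives, while Drosha, Xpo5 and Ran, close to 0, changed sign in 8, 3 and 12. Drosha was 0.023 with the replicate block and GC correction, 0.028 with GC correction, 0.033 with GC and length correction, and 0.10 in each of the 3 TPM analyses. Xpo5 was 0.086 in those 3. Ran was 0.034 with total counts, 0.043 with no filter, 0.065 with length correction and 0.18 with TPM. Leaving out 1 library gave -0.24 to 0.041 for Drosha and -0.23 to 0.069 for Ran, -0.55 to -0.21 (without wild-type tumor 4) for Tarbp2, 0.32 (without ΔAgo2 tumor 2) to 0.64 for Dicer1, 0.23 (without ΔAgo2 tumor 2) to 0.46 for Dgcr8, 0.33 to 0.60 for Prkra and -0.19 to -0.018 (without ΔAgo2 tumor 1) for Xpo5. Of the 7, only Dicer1 by voom (0.57) passed the threshold, making that count 1. The log2 ratio difference of Dgcr8 to Drosha moved to 0.26 and of Tarbp2 to Prkra to -0.45 on GC-corrected TPM. Fold changes by filtered TPM sit on a shifted scale. The median of all genes rose from 0.04 to 0.21 with log2(TPM + 1) and 0.28 with log2(TPM + 0.1). It was 0.03 with log2(TPM + 1) and no filter, over 30111 genes. In edgeR on counts with no filter it was 0.16.

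The wider list, with 0 called, gave 1 with upper quartile scaling, no filter, thinning, or GC and length correction, 2 with length correction or 6 libraries, 6 with DESeq2 and 9 with voom, and 0 to 5 when 1 library was left out (2 without wild-type tumor 3, 1 without wild-type tumor 4, 5 without ΔAgo2 tumor 1). Host transcripts called were 2 by DESeq2 and 3 by voom. All genes called, 560, became 2265 with DESeq2, 4476 with voom, 983 with no filter, 1163 with length correction, 1042 with GC and length correction, 153, 107 and 77 with TPM + 1, TPM + 0.1 and TPM without filter, and 88 (without ΔAgo2 tumor 4) to 1793 (without ΔAgo2 tumor 1) when 1 library was left out, with 143, 934 and 265 without wild-type tumors 2, 3 and 4, 166 without ΔAgo2 tumor 2 and fewer than 166 without ΔAgo2 tumor 3. Of the calls, 39.1% were higher in ΔAgo2 tumors, against 48.8% with GC correction, 57.5% with GC and length correction, 49.8% with DESeq2, 53.5% with voom, 52.4% with no filter, 50.3% with TPM + 1, 50.7% with 6 libraries and 18.2% to 54.6% when 1 library was left out.

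Replicate numbers did not pair the tumors (correlations of same-numbered tumors 0.10, -0.04, -0.24 and -0.29). With the number as a block, 70 genes were called (18.6% higher), and 299 with GC correction (45.8% higher), with 0 of the 7 called in either. The causes of these changes were not tested. Depth limits Dgcr8 and Prkra most in wild-type tumor 4, at 119 and 126 counts.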
